A study of Homo sapiens
Mus musculus and Homo sapiens with 21 samples.

Results

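Immune checkpoint and costimulatory genes were followed in the mouse host of human lung cancer xenografts. The set held 9 of the 33043 mouse genes measured, each found by its symbol, and every symbol matched 1 gene. It held the inhibitory receptor genes Lag3 and Havcr2 (TIM-3), the PD-1 ligand genes Cd274 (PD-L1) and Pdcd1lg2 (PD-L2), and the B7 genes Cd80 and Cd86. The leukocyte surface genes Cd52 and Cd180 and the adaptor gene Fyb completed it. Bulk RNA was sequenced from 21 libraries in 6 groups, and mouse transcripts reported on host cells while human transcripts reported on the cancer cells. The cancer cells were H2030-BrM3, a brain-metastatic derivative of the H2030 lung adenocarcinoma line. SQ denotes subcutaneous tumours (4 libraries), raised from cells injected under the skin in Matrigel, a basement membrane extract. FBMet denotes forebrain with tumours (3 libraries) and FB forebrain without tumours (4 libraries). HBMet and HB denote hindbrain with tumours (3 libraries) and without (4 libraries), and 2D a monolayer culture of the same cells (3 libraries). Brain tumours were seeded by injection into the heart. The labels list an age at injection of 5 to 6 weeks for every group of hosts, FB and HB included. All hosts were athymic nu/nu mice. Such mice lack a working thymus and most T cells, and keep myeloid, NK and B cells. The labels do not give the sex of the animals, or whether the mice behind FB and HB had been injected with cancer cells. Tumours were cut out with the surrounding stroma, and nothing in the labels says which libraries came from the same animal.

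Checkpoint and costimulatory proteins set how strongly a T cell answers an antigen-presenting cell. CD80 and CD86 on the presenting cell bind CD28, which activates the T cell, or CTLA-4, which restrains it, while PD-L1 and PD-L2 restrain T cells through PD-1. LAG3 binds MHC class II and TIM-3 binds galectin-9, among other ligands. Microglia, the resident macrophages of the brain, express several of these genes, so they can be measured in a host that lacks most T cells.

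Values are RPKM, a read density per unit of transcript length and of sequencing depth, rescaled so that the mouse genes of every library have the same sum. Changes were tested with limma on log2(value + 1) over the genes that reached 1 or more in 3 or more libraries. Adjusted p-values are Benjamini-Hochberg values over all genes of a comparison, and a gene is said to have risen or fallen at an adjusted p under 0.05. Folds include the pseudocount of 1 and understate changes of low genes. Mouse reads numbered 2446513 to 3982107 in SQ, 54450435 to 71916502 in FBMet, 17747167 to 20432888 in FB, 52358082 to 86139353 in HBMet and 19338017 to 23034782 in HB. A single read of Lag3 was therefore worth 0.237 to 0.351 in SQ and 0.0155 to 0.0201 in FBMet. The lengths behind the RPKM values were 616 bases for Fyb, 842 for Cd180, 815 for Cd86 and 3622 for Cd274, so levels of different genes were not ranked here. None of the 9 genes had a read in the monolayer, where 38532 reads fell on mouse genes beside 115154185 on human genes. That floor of 3 reads allows at most 1.25 stray reads per gene in an SQ library and 0.18 in a library of brain with tumours, by counting error only.

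Tumour-bearing brain held more RNA of 6 of the 9 genes in both regions. In FBMet against FB, Lag3, Fyb, Cd180, Cd52, Cd86 and Havcr2 rose by between 2.28-fold and 7.35-fold, and in HBMet against HB the same 6 genes rose by between 1.78-fold and 4.42-fold. Cd274 was tested in both regions and passed in neither, and Cd80 and Pdcd1lg2 were too low in brain to be tested. Of all 15777 genes tested, 14.4% rose and 16.0% fell in FBMet, and 2.92% rose and 0.33% fell in HBMet. For each of the 6, every library with tumours was above every library of the same region without, as it was for 17.1% of all genes in forebrain and 7.26% in hindbrain. The median log2 change of the 7 members tested was 1.85 in FBMet against FB, beside -0.03 for all genes tested, and 1.66 in HBMet against HB, beside -0.01. Ranked by log2 change, Lag3 stood at place 2 of 15777 in forebrain and at place 8 in hindbrain. In bulk tissue, more cells of a type and more RNA per cell cannot be told apart.

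**Figure D1:**
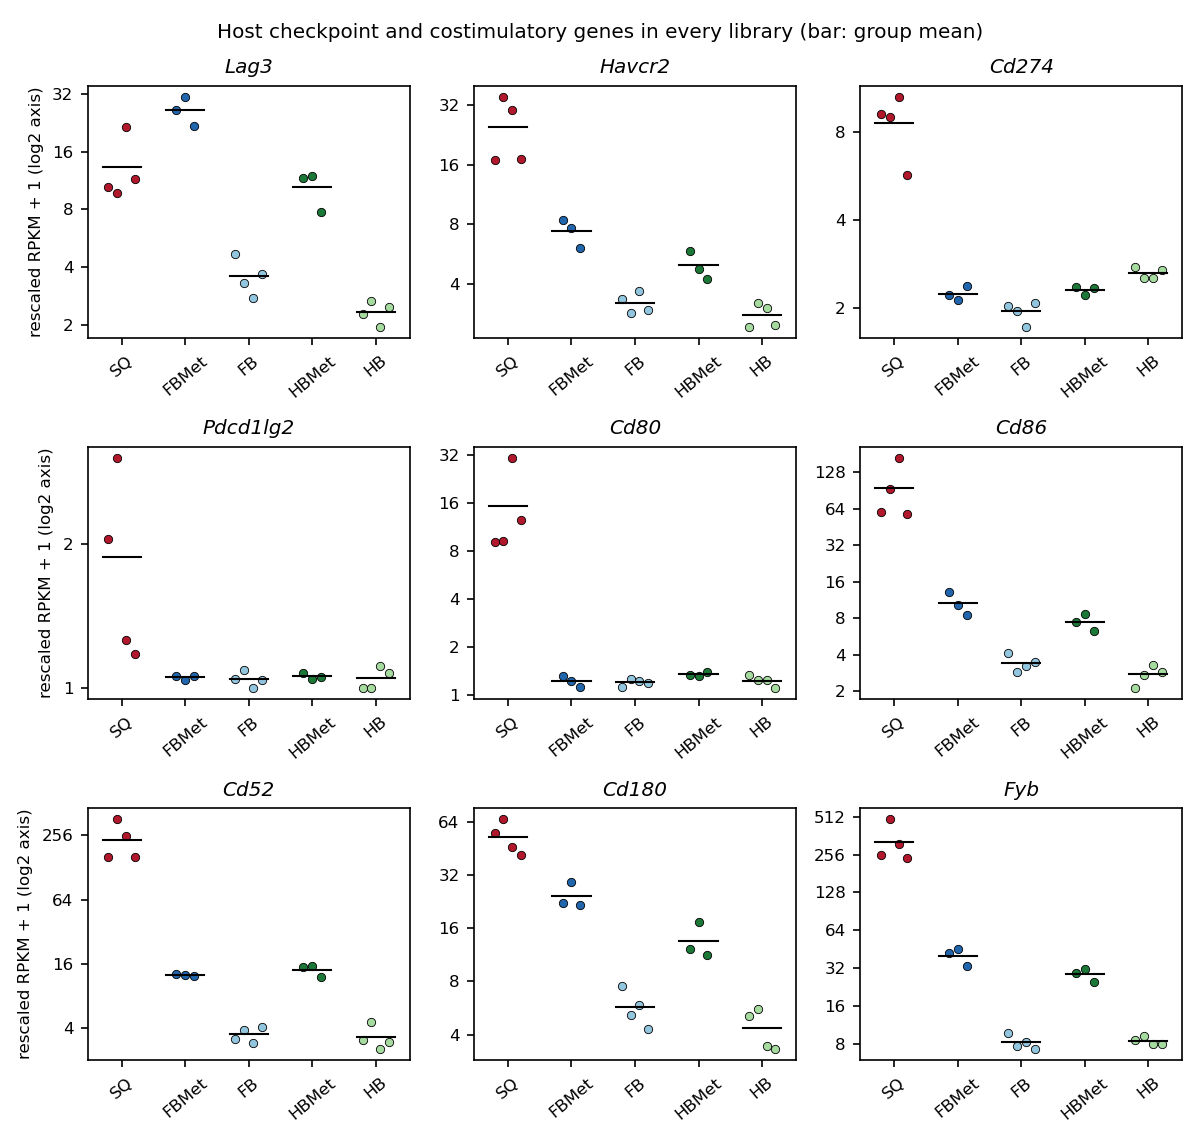
Each point is 1 library, plotted as rescaled RPKM plus 1 on a log2 axis for SQ, FBMet, FB, HBMet and HB, and the bar is the group mean. For Lag3, Havcr2, Cd86, Cd52, Cd180 and Fyb every library of brain with tumours lies above every library of the same region without, while the Cd80 values of brain stay at or below 0.406.

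Lag3, which encodes an inhibitory receptor related to CD4, was the member that moved most in brain. Its values were 25.5, 29.7 and 20.8 in FBMet, against 3.67, 2.32, 1.77 and 2.69 in FB. In hindbrain they were 10.6, 10.9 and 6.77 in HBMet, against 1.27, 1.65, 0.948 and 1.46 in HB. In both regions the lowest library with tumours was above the highest without, and the brain values rest on 19 to 1689 reads per library. By limma, the log2 change was 2.88 ± 0.19 (SE; 7.35-fold, adjusted p = 6.01e-07) in FBMet against FB and 2.14 ± 0.19 (4.42-fold, adjusted p = 1.08e-05) in HBMet against HB. On recovered reads with voom, where the pseudocount weighs less, the hindbrain change was 2.83 on the log2 scale.

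Havcr2 encodes TIM-3, an inhibitory receptor that myeloid cells also carry. It had values of 7.41, 6.62 and 5.03 in FBMet, against 2.36, 1.85, 2.66 and 1.96 in FB. HBMet libraries stood at 4.85, 3.74 and 3.24, against 1.42, 2.2, 2.01 and 1.47 in HB. No library with tumours overlapped those without in the same region. Its changes were smaller than those of Lag3, at 1.19 ± 0.15 on the log2 scale (2.28-fold, limma adjusted p = 9.88e-05) in forebrain and 0.83 ± 0.15 (1.78-fold, limma adjusted p = 0.00445) in hindbrain. In 1 fit of all 18 libraries with mouse tissue the hindbrain change missed the threshold (adjusted p = 0.0971).

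Cd86, a B7 ligand of CD28 and CTLA-4 found on activated presenting cells, followed the same pattern. FBMet values were 12.1, 9.35 and 7.43, against 3.14, 1.87, 2.24 and 2.48 in FB, and HBMet values were 6.37, 7.63 and 5.32, against 1.12, 1.73, 2.3 and 1.86 in HB. The groups did not overlap in either region. Its log2 change was 1.62 ± 0.18 (3.07-fold, limma adjusted p = 3.05e-05) in FBMet against FB and 1.44 ± 0.18 (2.71-fold, limma adjusted p = 0.000183) in HBMet against HB.

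Cd80, the other B7 ligand, stayed low wherever brain was sampled. Its values were 0.315, 0.226 and 0.122 in FBMet, against 0.129, 0.268, 0.23 and 0.192 in FB. HBMet had 0.347, 0.327 and 0.406, against 0.33, 0.242, 0.249 and 0.111 in HB. These values stand for 11 to 22 reads per FBMet library, 3 to 6 per FB library, 22 to 38 per HBMet library and 3 to 8 per HB library, and the groups overlapped in both regions. Without the filter on low values, limma gave a log2 change of 0.02 ± 0.08 in FBMet against FB (adjusted p = 0.966) and 0.14 ± 0.08 in HBMet against HB (adjusted p = 0.537). Cd86 thus rose in brain with tumours, while Cd80, which binds the same receptors, stayed below the level at which genes were tested.

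Cd274 encodes PD-L1, the main ligand of PD-1. Its values were 1.21, 1.12 and 1.37 in FBMet, against 1.03, 0.945, 0.72 and 1.08 in FB. In hindbrain they were 1.36, 1.21 and 1.34 in HBMet, against 1.76, 1.53, 1.54 and 1.69 in HB. Every FBMet library was above every FB library, and every HBMet library was below every HB library, so the order of the groups was opposite in the 2 regions. Such a separation was found downwards for 5.5% of genes in hindbrain. Neither change passed by limma, at 0.2 ± 0.1 on the log2 scale (1.15-fold, adjusted p = 0.134) in FBMet against FB and -0.19 ± 0.1 (0.876-fold, adjusted p = 0.391) in HBMet against HB.

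Pdcd1lg2, the gene of PD-L2, was close to the limit of detection in brain. It had 4, 3 and 5 reads in the FBMet libraries, against 1, 2, 0 and 1 in FB, and 8, 3 and 4 reads in HBMet, against 0, 0, 3 and 2 in HB. As levels, FBMet averaged 0.0518 ± 0.0112 (SD, n = 3) and FB 0.0441 ± 0.0379 (SD, n = 4). The libraries of brain with tumours were deeper, so more reads did not make a higher level. A change was not detectable at this depth.

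Cd52 encodes a small glycoprotein on the surface of lymphocytes and monocytes. Its values were 11.8, 11.6 and 11.3 in FBMet, against 2.16, 2.86, 1.93 and 3.1 in FB, and 13.9, 14.3 and 11.1 in HBMet, against 2.08, 3.6, 1.56 and 2.0 in HB. The libraries with tumours lay clear of those without, and the 3 FBMet libraries differed by little (SD 0.232). The log2 change was 1.85 ± 0.17 (3.6-fold, limma adjusted p = 7.9e-06) in FBMet against FB and 2.12 ± 0.17 (4.35-fold, limma adjusted p = 4.8e-06) in HBMet against HB. It was the only member of the 6 with the larger estimate in hindbrain, and the difference between the regions was not called (log2 difference -0.27 ± 0.24, limma adjusted p = 0.573).

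Cd180 encodes RP105, a Toll-like receptor without a signalling domain that sits on the cell surface with the protein MD-1. FBMet libraries had 21.2, 28.1 and 20.8, against 6.5, 4.16, 4.88 and 3.33 in FB. HBMet libraries had 11.2, 16.4 and 10.3, against 4.08, 4.61, 2.44 and 2.32 in HB. The groups were apart in both regions, with log2 changes of 2.11 ± 0.22 (4.31-fold, limma adjusted p = 2.4e-05) in forebrain and 1.66 ± 0.22 (3.15-fold, limma adjusted p = 0.000382) in hindbrain. Ly86, the gene of MD-1, moved further than Cd180 itself. It averaged 74.0 ± 10.3 in FBMet and 10.2 ± 1.32 in FB, a log2 change of 2.74 ± 0.15 (limma adjusted p = 8.44e-08), and 50.9 ± 10.7 in HBMet and 8.54 ± 1.45 in HB (2.44 ± 0.15, limma adjusted p = 1.57e-06).

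Fyb encodes ADAP, an adaptor that links immune receptors to integrins and actin in T cells and myeloid cells. Its values were 40.9, 44.2 and 31.9 in FBMet, against 8.66, 6.67, 7.31 and 6.26 in FB, and 28.3, 30.5 and 23.6 in HBMet, against 7.52, 8.22, 6.98 and 6.87 in HB. The lowest library with tumours exceeded the highest without by a wide margin in each region. Its change had the smallest error of the 6, at 2.28 ± 0.12 on the log2 scale (4.84-fold, limma adjusted p = 8.44e-08) in FBMet against FB and 1.76 ± 0.12 (3.38-fold, limma adjusted p = 2.38e-06) in HBMet against HB.

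**Figure D2:**
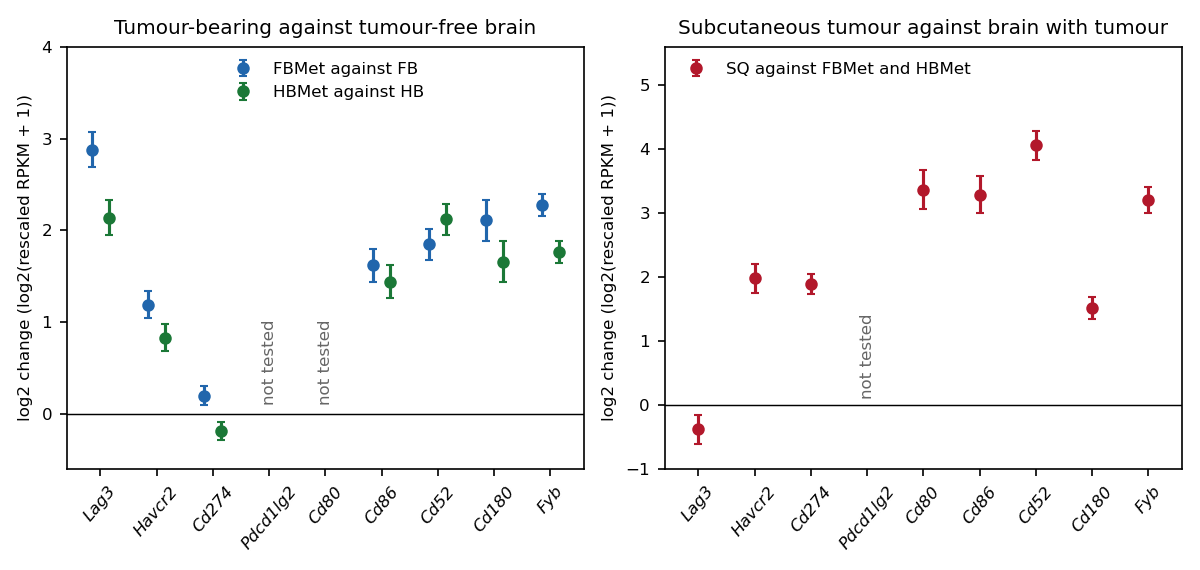
Points are log2 changes of log2(rescaled RPKM + 1) from limma and error bars are 1 standard error, at left for FBMet against FB and HBMet against HB and at right for SQ against FBMet and HBMet together. Lag3 has the largest change at left (2.88 in forebrain) and the only negative one at right (-0.38), and Cd274 stays near 0 at left.

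Whether the host change differed between the regions was tested as FBMet against FB minus HBMet against HB. None of the 7 members tested was called, where 0.456% of all genes were called in either direction (72 genes, or 160 with the replicate number within tumour status as a random block), and 3086 genes had an unadjusted p under 0.05. The smallest p-values belonged to Fyb (0.52 ± 0.18, limma adjusted p = 0.138), Cd274 (0.39 ± 0.14, adjusted p = 0.151) and Lag3 (0.73 ± 0.27, adjusted p = 0.157), while Cd180 stood at 0.45 ± 0.31 (adjusted p = 0.452). For Lag3 the higher level in FBMet than in HBMet thus stands as a description, with 25.3 ± 4.44 in FBMet and 9.41 ± 2.29 in HBMet (SD, n = 3 each).

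Between the tumour-free regions, FB against HB, Lag3 was higher in forebrain and Cd274 was lower. Lag3 averaged 2.61 ± 0.798 in FB and 1.33 ± 0.298 in HB, a log2 difference of 0.62 ± 0.17 (1.53-fold, limma adjusted p = 0.00817), and Cd274 averaged 0.944 ± 0.159 in FB and 1.63 ± 0.116 in HB (-0.44 ± 0.09, 0.738-fold, limma adjusted p = 0.000949; SD, n = 4 each). For both genes the groups did not overlap, with FB above HB for 17.4% of all genes and below it for 27.3%. The regions differ widely, since 20.2% of genes were higher in FB and 32.5% lower (3194 and 5133 genes, or 4204 and 4058 with median-of-ratios scaling), so 2 of 7 members called is no large share. With voom on recovered reads the Lag3 difference missed the threshold (adjusted p = 0.0698). Cd4, which lies beside Lag3 in the mouse genome, averaged 16.5 ± 2.18 in FB and 0.205 ± 0.223 in HB, and whether reads of the neighbour were counted to Lag3 was not tested. Havcr2, Cd86, Cd52, Cd180 and Fyb differed by 0.04 to 0.4 on the log2 scale in size, and none passed.

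Subcutaneous tumours set the same genes in another host tissue. Compared with brain carrying tumours (FBMet and HBMet), the SQ host RNA held more Cd52, Cd80, Cd86, Fyb, Havcr2, Cd274 and Cd180. These were 7 of the 8 members tested, with folds of 2.86 to 16.6. Cd80 reached the filter through the SQ libraries alone, so it could be tested only because it was high there, and without it 6 of 7 were called. Pdcd1lg2, low in both tissues, was not tested. This tissue comparison called most genes, 33.5% of 16814 higher and 47.1% lower, and the median log2 change was 1.98 for the 7 members other than Cd80 beside -0.26 for all genes tested. On simulated data the test made false calls in this comparison far more often than its threshold allows, so its adjusted p-values are too small to be taken at face value. With voom on recovered reads 7 members were called as well. Mouse reads were 4.84 to 12.2% of the SQ libraries, so SQ values are less precise than those of brain.

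Cd80 was barely read in brain and readily read under the skin. SQ libraries had 8.13, 8.16, 29.3 and 11.4, from 48, 46, 117 and 67 reads, against 0.122 to 0.406 over the 6 libraries of brain with tumours. All SQ libraries were above all of those, and the log2 change was 3.37 ± 0.31 (10.4-fold, limma adjusted p = 2.63e-06). With voom it was 5.66 on the log2 scale. Cd86 had 59.1, 92.3, 166 and 56.7 in SQ, against means of 9.64 ± 2.36 in FBMet and 6.44 ± 1.16 in HBMet (log2 change 3.29 ± 0.29, 9.76-fold, limma adjusted p = 2.24e-06). Both B7 genes thus passed the filter under the skin, and in brain Cd86 alone did.

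Of the PD-1 ligand genes, Cd274 was also higher under the skin, while Pdcd1lg2 had few reads there. Cd274 had 8.27, 8.0, 9.53 and 4.73 in SQ, against 1.23 ± 0.122 in FBMet and 1.3 ± 0.0777 in HBMet. No SQ library came near the brain values, and the log2 change was 1.89 ± 0.16 (3.72-fold, limma adjusted p = 1.73e-06), or 2.77 with voom. Pdcd1lg2 had 1.05, 2.02, 0.259 and 0.177 in SQ, from 6, 11, 1 and 1 reads. Its highest value in brain with tumours was 0.0755. A single read was worth 0.175 to 0.259 in SQ, so any SQ library with a read had to lie above the brain values. Pdcd1lg2 was below the filter, and without the filter its log2 change was 0.72 ± 0.25 (limma adjusted p = 0.0332).

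The surface and adaptor genes were higher under the skin as well. Cd52 had 161, 360, 254 and 158 in SQ (log2 change 4.06 ± 0.22, 16.6-fold, limma adjusted p = 3.98e-08), and Fyb had 251, 486, 310 and 241 (3.21 ± 0.2, 9.26-fold, limma adjusted p = 1.06e-07). Havcr2 had 15.9, 33.9, 29.2 and 16.1 (1.98 ± 0.23, 3.94-fold, limma adjusted p = 1.77e-05), and Cd180 had 54.7, 65.2, 45.1 and 40.4 (1.52 ± 0.17, 2.86-fold, limma adjusted p = 1.44e-05). Each of these SQ values was above every value of the same gene in brain with tumours, as was found for 25.8% of genes.

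Lag3 was the exception. It had 9.49, 8.7, 20.4 and 10.5 in SQ, within the span of the 6 libraries of brain with tumours, which ran between 6.77 in an HBMet library and 29.7 in an FBMet library. The log2 change against brain with tumours was -0.38 ± 0.23 (0.771-fold, limma adjusted p = 0.16). It passed once SQ replicate 3, the library with the fewest mouse reads, was left out (-0.63, limma adjusted p = 0.00448). By mean level Lag3 was ordered FBMet (25.3), SQ (12.3), HBMet (9.41), FB (2.61) and HB (1.33). SQ and HBMet differed by less than the SD of SQ (5.45), and SQ replicate 3, at 20.4, lay just under the lowest FBMet library, at 20.8. Havcr2, Cd86, Cd180 and Fyb were ordered SQ, FBMet and HBMet, followed by FB and HB, which overlapped for all 4. FBMet and HBMet overlapped for Cd86, and for Cd52, where HBMet averaged 13.1 ± 1.73 and FBMet 11.5 ± 0.232.

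Myeloid marker genes moved with these results. The 9 pan-myeloid markers all rose in FBMet, in HBMet and in SQ, with medians of 1.43, 1.42 and 3.9 on the log2 scale. Their summed level was 487 to 635 in FBMet against 195 to 225 in FB, 326 to 435 in HBMet against 131 to 189 in HB, and 3900 to 5500 in SQ. Of 10 microglia markers, 10 rose in FBMet and 7 in HBMet, while in SQ 3 were higher and 5 lower than in brain with tumours. Other cell types had short marker lists. Their counts stand beside the 14.4% of all genes that rose and the 16.0% that fell in FBMet. In HBMet these shares were 2.92% and 0.33%. The monocyte and border macrophage markers summed to 26.2 to 33.2 in FBMet against 14.3 to 18.3 in FB and to 44.2 to 51.7 in HBMet against 18.6 to 36.2 in HB, and 3 of the 7 tested rose in each region. Of those, 2 in each region passed the filter only through brain with tumours, so that 1 of the other 4 rose. Lyz2 was the largest part of each sum. It averaged 20.6 ± 2.75 in FBMet against 9.41 ± 1.56 in FB, and 35.2 ± 2.18 in HBMet against 15.7 ± 4.71 in HB. Means of Pf4 and Lyve1 were lower with tumours in both regions, while those of Mrc1 were higher. Of 4 dendritic cell markers tested, 2 rose and 1 fell in FBMet, and 1 rose in HBMet. Itgax, the gene of CD11c that activated microglia also use, rose to 5.9 ± 1.26 in FBMet against 0.454 ± 0.379 in FB and to 5.62 ± 0.827 in HBMet against 0.334 ± 0.136 in HB. It too passed the filter through brain with tumours alone, and without it 1 of 3 rose in FBMet and 0 of 3 in HBMet. Of 4 neutrophil markers tested, 1 rose in each region. It was Csf3r, the receptor gene of the growth factor G-CSF. Csf3r stood at 17.2 ± 4.02 in FBMet against 4.05 ± 0.853 in FB and at 12.1 ± 2.68 in HBMet against 3.51 ± 0.305 in HB. S100a8, S100a9 and Ngp were tested and not called. In FBMet Ngp averaged 0.375 ± 0.422 against 0.886 ± 0.558 in FB, and S100a8 averaged 2.54 ± 1.71 against 1.63 ± 0.679. In FBMet 4 of 5 astrocyte and 4 of 5 endothelial markers rose too, against 1 of 5 and 0 of 5 in HBMet. The astrocyte filament gene Gfap stood at 736 ± 181 in FBMet against 149 ± 28.2 in FB, and at 963 ± 189 in HBMet against 371 ± 120 in HB.

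Under the skin the monocyte and border macrophage markers summed to 5640 to 6430, against 26.2 to 33.2 in FBMet and 44.2 to 51.7 in HBMet. Lyz2 was the largest part in SQ too, at 4180 ± 295. In SQ 6 of 8 tested dendritic cell markers and 5 of 7 neutrophil markers were also higher, of which 4 and 2 passed the filter through SQ alone. The part of these cells in the changes of the checkpoint genes was not tested.

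**Figure D3:**
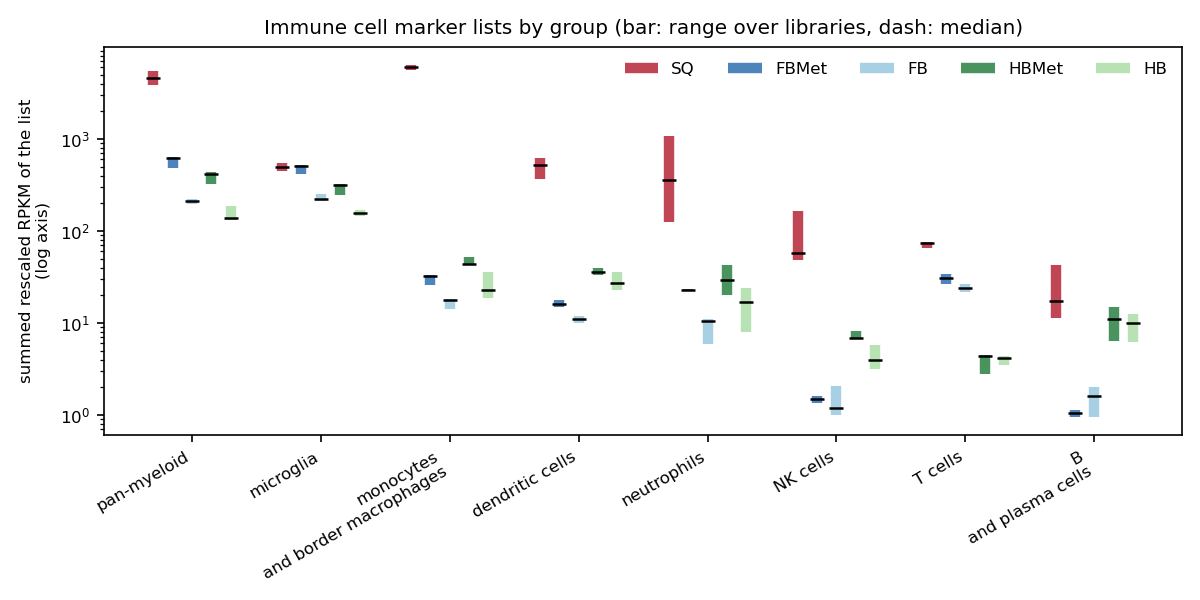
Bars span the libraries of each group and dashes mark the median of the summed rescaled RPKM of each immune cell marker list, on a log axis, for SQ, FBMet, FB, HBMet and HB. The pan-myeloid sum is 3900 to 5500 in SQ and 487 to 635 in FBMet, while the T cell sum in forebrain is mostly Cd4.

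Set against the pan-myeloid markers within each library, the members separated. The measure was log2(member + 1) minus the mean log2(marker + 1) of the 9 markers, given as a description. Lag3 stood at -0.37 ± 0.1 in FBMet and -1.84 ± 0.29 in FB, and at -1.24 ± 0.17 in HBMet and -2.01 ± 0.19 in HB, so it gained on the markers in both regions without overlap. Fyb did so too, at 0.24 ± 0.06 in FBMet and -0.63 ± 0.14 in FB, and 0.23 ± 0.08 in HBMet and -0.15 ± 0.11 in HB. Cd180 was at -0.48 ± 0.2 in FBMet and -1.18 ± 0.29 in FB, with overlap in hindbrain. Cd52 also gained in both regions without overlap, narrowly in forebrain. It was at -1.42 ± 0.17 in FBMet and -1.86 ± 0.26 in FB, and at -0.79 ± 0.05 in HBMet and -1.53 ± 0.2 in HB. Cd86 kept close to the markers, at -1.68 ± 0.19 in FBMet and -1.9 ± 0.21 in FB and at -1.71 ± 0.14 in HBMet and -1.78 ± 0.39 in HB. Havcr2 lay slightly lower against the markers with tumours, at -2.21 ± 0.09 in FBMet and -1.99 ± 0.16 in FB, with overlap, and at -2.3 ± 0.12 in HBMet and -1.76 ± 0.19 in HB, without. Cd274 lay clearly lower, at -3.91 ± 0.27 in FBMet and -2.71 ± 0.13 in FB, and -3.39 ± 0.21 in HBMet and -1.83 ± 0.24 in HB. In SQ the spread was wider still, with Lag3 at -4.7 ± 0.56 and Fyb at -0.08 ± 0.25. The pseudocount of 1 compresses this measure for genes near a value of 1, such as Cd274.

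**Figure D4:**
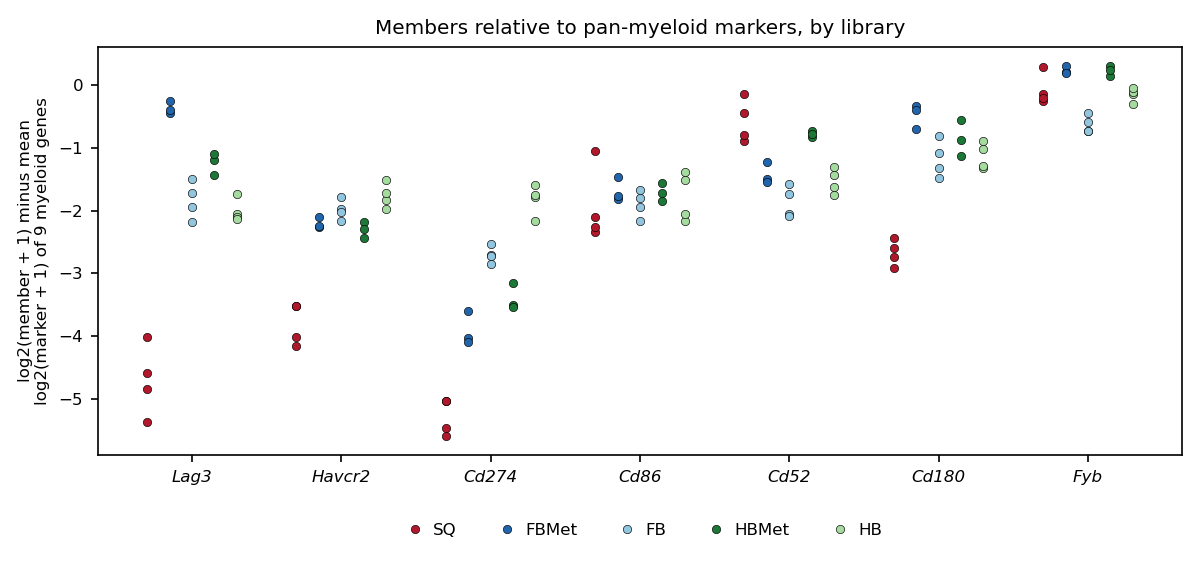
Each point is 1 library of SQ, FBMet, FB, HBMet or HB, and the axis is the log2 level of a member minus the mean log2 level of 9 pan-myeloid markers. Lag3 ranges between -0.45 and -0.25 in FBMet and between -5.37 and -4.01 in SQ, while Cd86 in brain stays between -2.16 and -1.38.

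Defining markers of T cells had few reads. Cd3d, Cd3e and Cd3g, which encode the CD3 chains that define T cells, had 0, 1 and 2 reads over all FBMet libraries and 2, 8 and 5 over all HBMet libraries. In SQ they had 9, 2 and 6 reads, from far fewer mouse reads in all. As levels they averaged 0.556 ± 0.439, 0.148 ± 0.297 and 1.31 ± 1.33 in SQ. In FBMet these means were 0, 0.00436 and 0.0304, and in HBMet 0.0109, 0.0386 and 0.0872. The 4 T cell markers tested in SQ, Cd2, Lck, Cd4 and Zap70, were all higher than in brain with tumours, Cd2 having passed the filter through SQ alone. Of the 13 T cell markers, 3 were measured well enough to be tested in brain, and Cd4 alone rose, to 23.8 ± 3.44 in FBMet against 16.5 ± 2.18 in FB (limma adjusted p = 0.0207). In HBMet Cd4 stood at 0.253 ± 0.105. NK cell markers were another matter under the skin, where 8 of the 9 tested of 11 rose against brain with tumours, among them Gzma, which encodes a granzyme, at 25.8 ± 11.9 in SQ. All 8 passed the filter through SQ alone. The summed level of the NK cell markers was 48.1 to 167 in SQ, against 1.36 to 1.61 in FBMet and 6.73 to 8.12 in HBMet. Most of the HBMet sum was Eomes, a transcription factor gene that neurons also use, at 6.43 ± 0.282 in HBMet, 0.7 ± 0.192 in FBMet and 3.51 ± 1.27 in HB. Gzma stood at 0.193 ± 0.0776 in HBMet and 0.213 ± 0.0582 in FBMet. Lag3, Havcr2, Cd52 and Fyb can also be expressed by NK cells, and the part of those cells in SQ was not tested.

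The receptors that these ligands address were measured among the other B7 and CD28 family genes. Of 18 such genes, 8 were tested in brain, and 6 rose in FBMet and 4 in HBMet with none falling. Pdcd1, Cd48 and Tnfrsf14 passed the filter only through brain with tumours and could be tested only because they were high there. Of the 5 others, 3 rose in FBMet and 2 in HBMet. Cd28 and Ctla4, the receptor genes for CD80 and CD86, were too low in brain to be tested. Cd28 averaged 0.138 ± 0.0538 in FBMet against 0.14 ± 0.0594 in FB, and 0.541 ± 0.177 in HBMet against 0.365 ± 0.205 in HB. Ctla4 averaged 0.167 ± 0.0886 in FBMet against 0.227 ± 0.269 in FB, and 0.0404 ± 0.0457 in HBMet against 0.0254 ± 0.0507 in HB. Pdcd1, the gene of PD-1 itself, rose to 1.09 ± 0.369 in FBMet against 0.0714 ± 0.0726 in FB (log2 change 0.95 ± 0.16, limma adjusted p = 0.000879) and to 0.998 ± 0.467 in HBMet against 0.0809 ± 0.0141 in HB (0.86 ± 0.16, limma adjusted p = 0.00539). The FBMet libraries held 69 to 112 reads of it and the HBMet libraries 43 to 140. Cd48, a ligand of the receptor CD244, rose by 1.15 on the log2 scale in FBMet and 1.04 in HBMet. Vsir, which encodes the checkpoint protein VISTA, rose by 0.88 and 0.61, to 117 ± 18.6 in FBMet against 62.5 ± 2.03 in FB and to 88.2 ± 12.5 in HBMet against 57.1 ± 5.37 in HB. In SQ, 12 of the 13 tested were higher than in brain with tumours (7 of the 8 not tested through SQ alone), with Cd48 at 78.6 ± 19.6 and Tnfrsf14, which encodes HVEM, the ligand of BTLA, at 17.7 ± 8.68. Pdcd1 was the one not called there (-0.28 ± 0.24, limma adjusted p = 0.305), with 16 reads over the 4 SQ libraries.

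A few ligand genes of LAG3 and TIM-3 rose in brain. Of 13 genes, 10 were tested in brain, and 3 rose in FBMet and 2 in HBMet. Without H2-DMb1, 2 of 9 rose in each region. Of all genes tested, 14.4% rose in FBMet and 2.92% in HBMet. Lgals9, which encodes galectin-9, rose to 19.1 ± 4.25 in FBMet against 5.69 ± 0.53 in FB (1.57 ± 0.15, limma adjusted p = 7.9e-06) and to 13.6 ± 1.92 in HBMet against 6.12 ± 0.975 in HB (1.04 ± 0.15, limma adjusted p = 0.000496). Lgals3, which encodes galectin-3, rose by 0.59 in FBMet and by 1.56 in HBMet on the log2 scale. H2-DMb1, a chain of the MHC class II loading factor, rose by 1.14 in FBMet and was at 0.9 ± 0.27 in HBMet (limma adjusted p = 0.11), having passed the filter through brain with tumours alone. The MHC class II chains themselves did not pass the test in brain, where their errors were wide. H2-Aa averaged 5.5 ± 1.51 in FBMet and 3.35 ± 1.5 in FB (log2 change 0.63 ± 0.34, limma adjusted p = 0.186), and 12.3 ± 2.56 in HBMet and 7.15 ± 3.54 in HB (0.8 ± 0.34, limma adjusted p = 0.291). In SQ all 11 tested rose against brain with tumours, Ciita having passed the filter through SQ alone, and H2-Aa stood at 1780 ± 588 (log2 change 7.54 ± 0.23, limma adjusted p = 5.73e-10), with H2-Eb1, Cd74 and H2-Ab1 between 7.08 and 7.56. Lag3 was thus highest in FBMet, where its MHC class II ligand genes were low, and its mean was 12.3 in SQ, where they were high, and 9.41 in HBMet, where they were low.

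Partners of CD180 and Toll-like receptors rose almost throughout in forebrain. Of 13 genes, 12 rose in FBMet and 8 in HBMet, or 10 and 6 of 11 without Tlr6 and Tlr9, which passed the filter through brain with tumours alone. Besides Ly86, the largest changes in FBMet were in the receptor genes Tlr13 (1.48 on the log2 scale), Tlr2 (1.3) and Tlr7 (1.16), which sense bacterial or viral products. In HBMet they were Tlr7 and Cd14, the lipopolysaccharide co-receptor gene (1.24 each), and Tlr13 (1.17). In SQ 12 of 13 were higher than in brain with tumours, led by Cd14 at 4.55, and Tlr3 alone was lower (-0.74 ± 0.13). Ly86 rose by only 0.94 ± 0.15 there, at 119 ± 23.0 in SQ.

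Partners of the FYB adaptor moved in part. Of 12 genes, 6 rose and 1 fell in FBMet, and 4 rose in HBMet. Apbb1ip, which encodes the integrin activator RIAM, rose by 1.44 in FBMet and 1.12 in HBMet, Lcp2, which encodes the adaptor SLP-76 that binds ADAP, by 1.39 and 1.25, Vav1 by 1.34 and 1.11, and the actin regulator gene Was by 1.09 and 0.82. Skap1, the T cell partner of ADAP, fell by 0.51 in FBMet, to 1.61 ± 0.377 against 2.72 ± 0.405 in FB (limma adjusted p = 0.0202). Its paralogue Skap2 rose by 0.46 there. Fyn, Evl, Nck1, Nck2 and Rap1a, which neurons also use, were not called in either region. In SQ 9 rose and 2 fell against brain with tumours, the 2 being Fyn (-0.97) and Evl (-0.87).

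Phagocyte inhibitory receptors and their ligands numbered 13, of which 10 were tested in brain. In FBMet 5 rose and 1 fell, and in HBMet 5 rose. Lilrb4a, Pilra and Siglece passed the filter through brain with tumours alone, and 2 of the 6 genes that did not rose in each region. The shares of all genes that rose were 14.4% in FBMet and 2.92% in HBMet. Cd33, which encodes an inhibitory Siglec, rose by 1.31 in FBMet and 0.79 in HBMet on the log2 scale, and the collagen receptor gene Lair1 by 1.12 and 0.77. Lilrb4a, an inhibitory leukocyte receptor gene, rose by 0.58 in FBMet and 0.93 in HBMet and stood at 159 ± 42.0 in SQ. Cd200, a neuronal ligand that quiets microglia, fell by 0.39 in FBMet, to 163 ± 17.6 against 213 ± 9.36 in FB (limma adjusted p = 0.00607). In SQ 10 of 12 were higher than in brain with tumours (8 of the 10 not tested through SQ alone) and Cd200 was lower (-1.38 ± 0.11).

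Few genes of TNF family costimulation were measured in brain. Of 15 genes, 5 were tested, and Tnfrsf1b, the gene of TNF receptor 2, rose in FBMet (0.9 ± 0.16, limma adjusted p = 0.00105) and in HBMet (0.73 ± 0.16, limma adjusted p = 0.014). Ltbr, the lymphotoxin beta receptor gene, rose in HBMet (0.51 ± 0.13, limma adjusted p = 0.0487). Cd40, a costimulatory receptor of presenting cells, stood at 1.17 ± 0.261 in FBMet and 0.939 ± 0.135 in FB and was not called. In SQ 9 of 10 were higher than in brain with tumours (4 of the 5 not tested through SQ alone), with Cd40 at 30.3 ± 13.3. Cd70 alone was called lower, at 0 reads in all 4 SQ libraries. It was tested only through hindbrain, at 1.29 ± 0.0824 in HBMet, and stood at 0.0835 ± 0.103 in FBMet from 1 to 7 reads per library, a level from which 0 reads at the depth of SQ cannot be told.

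Interferon gamma raises PD-L1 in many cells, and genes of its response were followed for that reason. The list held its own gene Ifng, its receptor genes Ifngr1 and Ifngr2, and target genes. Of 16 genes, 14 were tested in brain, and 9 rose and 1 fell in FBMet while 3 rose in HBMet. Without Nlrc5 and Cxcl10, which passed the filter through brain with tumours alone, 7 and 2 of 12 rose. Cxcl10, a chemokine gene, rose to 4.16 ± 0.66 in FBMet against 0.315 ± 0.116 in FB (1.97 ± 0.12, limma adjusted p = 3.22e-07) and to 1.81 ± 0.169 in HBMet against 0.342 ± 0.122 in HB (1.07 ± 0.12, limma adjusted p = 9.03e-05). It was the only gene of the list for which the difference between the regions was called. Irf8, a myeloid transcription factor gene, rose by 1.62 and 1.57. Ifngr2, a chain of the interferon gamma receptor, fell by 0.33 in FBMet. In SQ all 15 tested were higher than in brain with tumours (13 of them not tested through SQ alone), among them Nlrc5, an activator of MHC class I genes (3.94), and the chemokine gene Cxcl9 (3.87). Cxcl9 passed the filter through SQ alone, so it could be tested only because it was high there. Ifng, the gene of interferon gamma itself, had 6 reads over all SQ libraries, 9 over FBMet, 1 over HBMet and 0 over FB and HB. Cd274 was higher in SQ than in brain with tumours and was not called in FBMet or HBMet. Its relation to the genes of this list was not tested.

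Likeness of pattern was described over the 14 brain libraries as Pearson's r of log2(value + 1) between each member and the other genes tested. The libraries share the contrast with tumours, so a high r is common among genes that rose. The 6 members that rose correlated with each other at 0.86 to 0.97, and Cd274 with them at -0.21 to -0.01. Genes most like Lag3 were Apbb1ip, Itgam and Vav1 (0.98 to 0.99), and those most like Havcr2 were Nckap1l, Vsir and Abi3 (0.98 to 0.99). Cd86 was nearest to Tlr7, Cd300c2 and Cd53 (0.98 to 0.99), Cd52 to Ctsh, Csf2rb2 and C3ar1 (0.97 to 0.98), Cd180 to Tnfrsf13b, Apbb1ip and Aim2 (0.98), and Fyb to Runx1, Rac2 and Pik3ap1 (0.99). Cd274 had less close neighbours, with RP23-357C16.1, Lrig2 and Mir135a-2 at 0.88 to 0.89.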

How the data were processed

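The RPKM values of mouse genes were computed and deposited by the authors, with those of human genes in a table of their own. Per the submitters' processing notes the builds were mm10 (GRCm38) and hg38 (GRCh38). No aligner, counting program, source of gene lengths or strand setting is given in the sources used here. Total RNA was taken with a kit for fatty tissue, per the labels' protocols. Mouse gene positions and sequences are not given here. Genes that share reads with overlapping or near-identical genes could not be checked.

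RPKM was rescaled to the same sum per library. Tests were two-sided moderated tests of limma 3.58.1 (trend and robust spread, R 4.3.3) on log2(value + 1), for genes that reached 1 in 3 or more of the libraries fitted. FBMet, FB, HBMet and HB (14 libraries) were fitted together, and SQ, FBMet and HBMet (10 libraries) were fitted for SQ against the mean of both brain groups. No block was used. The count of reads behind each value was recovered from the steps of the deposited RPKM (100% of 32644 genes above 0 gave whole numbers within 0.02), and served for depths and for voom.

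The members, lists and tests were chosen with earlier results of these data known. From each list reported the text gives the count called and at most 4 genes, those that changed most among the called. Markers of B and plasma cells, neurons, oligodendrocytes, fibroblasts, forebrain and hindbrain were also counted, and their counts are not given. Calls in the other direction, where a list other than the cell type markers had 1 or 2, are also named. They were chosen after their values were seen, as were Skap2, H2-Aa in brain, Cd40 in brain, Fyn, Evl, Nck1, Nck2 and Rap1a. So were Lair1 and Lilrb4a in both brain regions, H2-DMb1 in HBMet, Itgax, Csf3r, Gfap, Eomes, Gzma and Cd70 in brain. The same holds for the genes that passed the filter through 1 side alone, Ly86 in SQ, Pdcd1 in SQ and single CD3 genes. Ifng, Cd28, Ctla4, Lyz2, Pf4, Lyve1, Mrc1, S100a8, S100a9, Ngp and human FYB were also named after their values were seen. Likeness names the 3 genes with the highest r. Itgam matched 2 entries and was left out of the markers.

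Same-numbered FBMet and HBMet libraries deviated together (correlations of 0.22 to 0.43, against -0.33 to -0.05 between other numbers), and FB with HB did not (-0.07 to 0.36). The labels give no source for this pairing. Nothing says that replicates came from separate animals, so p-values measure the spread between these libraries. Python 3.11.15 with pandas 2.3.3 and NumPy 2.4.6 was used, with matplotlib 3.10.9 for plots. The tests were tested on simulated data, where SQ against brain gave far more false calls than its threshold allows. A gene passed through 1 side alone where fewer than 3 libraries of the other side (FB and HB, or FBMet and HBMet for SQ) reached 1.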

Additional observations from a re-analysis of the deposited data

Results flagged for a closer look

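Lag3 and Cd80 each had 1 SQ library far from the other 3, and in both cases it was SQ replicate 3. Lag3 stood at 20.4 there, beside 9.49, 8.7 and 10.5 in the others, and Cd80 at 29.3, beside 8.13, 8.16 and 11.4. These are 2 of 27 sets of 4 libraries examined, and chance flags about 1 in 20. The library had the fewest mouse reads (2446513), and the 2 values rest on 58 reads of Lag3 and 117 of Cd80. Its Cd86 value was also the highest of the group, at 166. The part of depth in these values was not tested.

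Human CD274 was read from the cancer cells, outside the host measurements. Its group means on the human scale were 1.39 ± 0.452 in FBMet (n = 3), 0.653 ± 0.295 in HBMet (n = 3), 1.25 ± 0.619 in SQ (n = 4) and 2.86 ± 0.248 in the monolayer (n = 3; SD in each case), with 0 reads in the libraries of tumour-free brain. The metastasis values rest on 13 reads in FBMet and 8 in HBMet in all. Each organism's RPKM was rescaled on its own, so human and mouse levels cannot be compared.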

How the results depend on the processing

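Of 597 values of single members under other settings, 588 kept their direction and their side of the threshold. The exceptions were Havcr2 in HBMet against HB in 1 fit of all 18 libraries (0.83, adjusted p = 0.0971), Lag3 in FB against HB with voom (0.95, adjusted p = 0.0698), Lag3 in SQ against brain with tumours without SQ replicate 3 (-0.63, adjusted p = 0.00448; range of adjusted p over its settings 0.00448 to 0.65), and 6 values of FB against HB. There Cd180 passed with the replicate block as a fixed term (0.4, adjusted p = 0.0465) and without HB replicate 2 (0.53, adjusted p = 0.0464), and near-zero estimates changed sign, for Fyb with median-of-ratios scaling (0.05), without FB replicate 4 (0.02) and without HB replicate 2 (0.01; range over libraries left out -0.12 to 0.02), and for Cd52 without HB replicate 3 (-0.0; range -0.0 to 0.28). The replicate block changed no other call of a member. Members called numbered 6 in FBMet against FB under every setting, 5 or 6 in HBMet against HB, 0 in the difference between regions, 1 (voom) to 3 in FB against HB, and 7 or 8 in SQ against brain with tumours.

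Counts over all genes moved more. With all 18 libraries in 1 fit, 1798 genes were called in FBMet against FB (4793 in the fit reported), 303 in HBMet against HB (512) and 12 in the difference between regions (72). The last was 30 without a filter, 173 with voom and 160 with the replicate block as a random term. Leaving out 1 library gave 2353 (without FBMet replicate 2) to 4976 in FBMet against FB, 291 (without HBMet replicate 2) to 804 (without HB replicate 1) in HBMet against HB, 12 to 343 in the difference between regions, 7634 to 8102 in FB against HB and 12909 to 13987 in SQ against brain with tumours. Members called then numbered 6, 6, 0, 2 to 3 and 7 to 8 in the same order. The causes were not tested. Precision in SQ is limited by its few mouse reads. In brain, Pdcd1lg2 (0 to 8 reads per library) and Cd80 (3 to 38) are near the limit of detection.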

Other observations

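Other human counterparts of the set, where measured, were low in the cancer cells. The symbol CD80 did not match a single human gene, so CD80 has no value here. LAG3 averaged 0.727 ± 0.263 in SQ (n = 4, 202 reads), 0.379 ± 0.332 in FBMet (n = 3, 9 reads), 0.358 ± 0.0999 in HBMet (n = 3, 10 reads) and 0.114 ± 0.0292 in the monolayer (n = 3, 25 reads; SD in each case). HAVCR2 had 30 reads in SQ, 0 in FBMet and HBMet and 12 in the monolayer. FYB had 26 reads in SQ, 2 in FBMet, 3 in HBMet and 11 in the monolayer. CD86, CD52, CD180 and PDCD1LG2 had at most 2 reads in any tumour group. The libraries of tumour-free brain held no read of these genes. How many of the human reads in SQ came from mouse transcripts was not tested.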
